A study of Mus musculus with 16 samples.

Results

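Livers of Ncoa5+/-Tip30+/- mice (double heterozygotes) were set against livers of Ncoa5+/- mice (genotype Ncoa5+/-Tip30+/+). Both groups carried a heterozygous deletion of Ncoa5, and the groups differed by the heterozygous deletion of Tip30, whose gene symbol is Htatip2. There were 4 mice in each group, 8 of the 16 in the study, and the other 8 were 4 wild-type and 4 Tip30+/- (Ncoa5+/+Tip30+/-) mice. All mice were females aged 5 months, with 1 library from a piece of liver per mouse. Genes were taken when their mean over the 8 livers was at least 10 normalized counts (read counts divided by a size factor per library), which gave 15433 of the 30199 genes in the table and left out 14766. Which part of each gene was deleted, the mouse strain, and whether a deletion was limited to a cell type are not given by the labels. Nothing in those sources says whether mice came from shared litters, and the p-values below measure the spread between these mice.

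Htatip2 encodes a short-chain dehydrogenase-like protein that has been studied as a tumour suppressor and in the endocytic trafficking of the epidermal growth factor receptor. Ncoa5 encodes a coregulator of nuclear receptors, among them the estrogen receptor, and its heterozygous loss has been studied in mouse models of glucose intolerance and liver cancer. The series title names Hcn3, a subunit of the hyperpolarization-activated, cyclic nucleotide-gated channels that carry pacemaker currents in heart and brain. Several genes below are processed pseudogenes: intron-less copies of a messenger RNA that were inserted elsewhere in the genome. Reads of a near-identical copy can be counted for the wrong locus, so the values of such genes are uncertain as to their source.

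Each double heterozygous library held 24740706 to 31987259 reads in genes and each Ncoa5+/- library 26262744 to 28895680. Mitochondrial genes took 3.60% to 5.50% and 3.42% to 5.59% of the reads. The 15 hepatocyte identity genes were all tested, and their summed level was 2570500 to 3234000 normalized counts in double heterozygotes and 2714600 to 3604600 in Ncoa5+/- livers, and Alb, the albumin gene, was among the tested members. Zhx2, a repressor of fetal liver genes, stood apart within the Ncoa5+/- group: it was at 13.5 and 8.77 normalized counts in Ncoa5+/- mice 1 and 4 and at 238 and 207 in mice 2 and 3. All 4 double heterozygotes lay between 167 and 420. The test of Zhx2 did not pass (log2 difference 2.28 ± 1.16, SE, with an exact permutation p of 0.171). In the wild type, 2 livers were low as well, at 19.4 and 26.3. Without these 4 livers the log2 difference of Zhx2 was 0.16. Where leaving out these 4 livers moved a printed log2 difference or list median by over 1.5 times and by at least 0.1, both values are given.

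Of the 15433 genes, 1 fell and 2 rose at an adjusted p under 0.05, which is 0.00648% and 0.013% of those tested. The gene that fell was Htatip2 itself. The 2 that rose, Gm6394 and Gm11478, are annotated processed pseudogenes, the latter a copy of the ribosomal protein gene Rpl13a. At an unadjusted p under 0.05 there were 665 genes higher (4.31%) and 714 lower (4.63%), together 8.94%. In 423 genes (2.74%) every double heterozygote lay above every Ncoa5+/- mouse and in 324 (2.1%) every one lay below, together 4.84%. The median log2 difference over all genes was -0.02, and 46.2% of genes were above 0. In simulated data with the same 15433 genes, 34.3% of 1.5-fold changes were called, 76.1% of 2-fold changes and 96.5% of 4-fold changes. Changes were placed only where the simulated level averaged 50 or more, so recovery at lower levels was not tested. In the livers, Ftl2-ps, Ftl1-ps2, Gm12164 and Gm15590, described below, had log2 differences of 2.65 to 3.59. None of them was called (adjusted p = 0.180 to 0.191 in the model of all 16 livers). Whether the shares above hold for such genes was not tested.

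Htatip2 (chr7:49759115-49773975, GRCm38) was at 837, 1088, 991 and 991 normalized counts in the double heterozygotes and at 2910, 2066, 2331 and 2562 in the Ncoa5+/- livers. All double heterozygotes lay below all Ncoa5+/- mice. The level fell by 1.33 ± 0.13 on the log2 scale (95% confidence interval -1.60 to -1.06, adjusted p = 0.000135), to 39.8% of the Ncoa5+/- level. The exact permutation p was 0.0286, the smallest that 70 arrangements of 8 mice allow. On the wild-type background the gene fell by 1.41, and the difference between the 2 effects was 0.08 ± 0.18. In every mouse labelled Tip30+/- or double heterozygous the level was below that of every mouse without the deletion.

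Ncoa5 (chr2:165000357-165034867), deleted in both groups, was at 391 ± 23.5 normalized counts (SD, n = 4) in the double heterozygotes and at 381 ± 35.1 in the Ncoa5+/- livers. The log2 difference was 0.04 ± 0.10, with a 95% confidence interval of -0.18 to 0.26 and an exact permutation p of 0.629. Wild-type livers were at 426 ± 42.1, and the difference of Ncoa5+/- from wild type, -0.16, did not pass (adjusted p = 0.655). Ncoa5 RNA did not separate the alleles and so is no check of the Ncoa5 label.

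**Figure D1:**
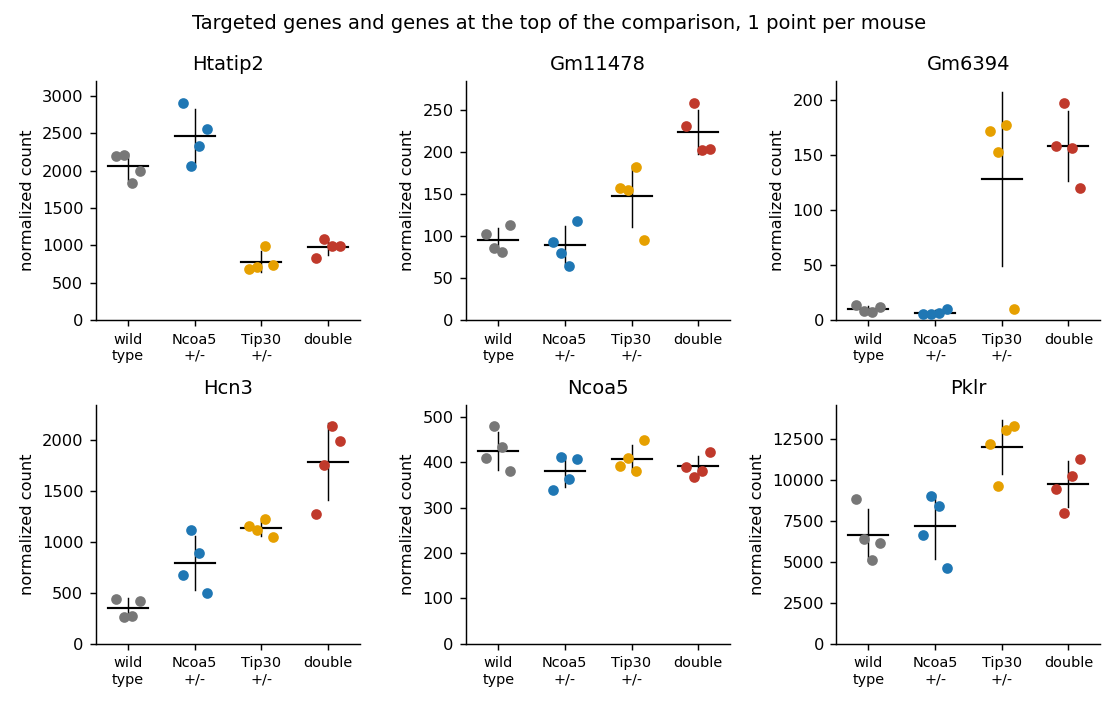
Normalized counts (y axis, linear from 0) of 6 genes in each mouse (points) by genotype (x axis), with the group mean (horizontal line) and SD (vertical line), n = 4. Htatip2 lay between 837 and 1088 in the double heterozygotes and between 2066 and 2910 in Ncoa5+/- livers, while for Gm6394 the Tip30+/- mouse at 10.2 sat with the livers without the Tip30 deletion.

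Gm6394 (chr3:57717813-57718289) was at 158, 198, 156 and 120 normalized counts in the double heterozygotes. In the Ncoa5+/- livers it was at 5.63, 5.09, 6.25 and 9.74. The groups were far apart, and the log2 difference was 4.39 ± 0.65 (adjusted p = 0.0313). Its Ncoa5+/- mean was 6.68, so Gm6394 reached the mean of 10 only through the double heterozygotes, and its separation is no support. Gm11478 (chr11:86630428-86631026), an Rpl13a copy of 98.0% identity, was at 231, 259, 202 and 204 in the double heterozygotes and at 93.5, 79.4, 64.5 and 118 in the Ncoa5+/- livers. Its log2 difference was 1.35 ± 0.21 (adjusted p = 0.0313), again with no overlap between the groups. Within the 2 ranges of mouse tags, under 4300 and from 4300, with 2 mice of each group in each, Gm6394 differed by 4.81 and 3.96 and Gm11478 by 1.49 and 1.21. Both calls were lost when any 1 of 7 of the 8 mice was left out (adjusted p up to 0.211), and without Ncoa5+/- mouse 4 Gm11478 alone passed. The log2 differences without single mice were at least 4.27 for Gm6394 and at least 1.21 for Gm11478. With no filter on low values Gm6394 was lost (adjusted p = 0.135). Rpl13a, the presumed source gene of Gm11478, did not follow its copy: it was at 123, 194, 143 and 149 in the double heterozygotes and at 159, 182, 102 and 159 in the Ncoa5+/- livers, and the groups overlapped.

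The differences between Rpl13a and Gm11478 show where a read could be assigned. In the 90 coding bases below, the stretch of Rpl13a without gaps that has the most differences, capitals mark bases at which the gene and its copy differ. All sequences are read 5′ to 3′ from GENCODE M21 transcripts (GRCm38).
Rpl13a: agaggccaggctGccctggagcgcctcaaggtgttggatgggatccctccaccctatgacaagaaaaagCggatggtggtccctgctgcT
Gm11478: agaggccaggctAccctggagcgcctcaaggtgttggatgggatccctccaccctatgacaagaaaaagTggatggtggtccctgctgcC

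Copies of the ferritin light chain gene were next. Ftl1 encodes the light subunit of ferritin, the iron storage protein. Ftl2-ps (chr4:125504288-125504839, 98.7% identity to Ftl1) was at 37431, 42280, 34359 and 33585 normalized counts in the double heterozygotes and at 4379, 3245, 3229 and 3217 in the Ncoa5+/- livers. Gm15590 (chr17:6131854-6132405, 99.1% identity) was at 12519 to 15166 against 1928 to 2639. The groups lay far apart for both. Ftl1-ps2 (chr10:130592157-130592705, 97.8%) was at 1455 to 1793 against 102 to 157, and Gm12164 (chr11:45829319-45829869, 96.0%) at 931 to 1078 against 128 to 187. The log2 differences of these 4 copies were 3.40, 2.65, 3.59 and 2.78, or 10.5-, 6.28-, 12.0- and 6.89-fold. None passed in the model of all 16 livers (adjusted p = 0.180 for Ftl2-ps, Ftl1-ps2 and Gm12164 and 0.191 for Gm15590).

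The same 4 copies did pass when the 2 groups were fitted alone (adjusted p = 3.46e-07 for Ftl2-ps and for Ftl1-ps2). They also passed in the fit of all livers but Tip30+/- mouse 4, a setting chosen after seeing the data. That mouse was at 3109 normalized counts of Ftl2-ps, while the other Tip30+/- mice were at 35932, 32092 and 39299, so it lay within the range of livers without the Tip30 deletion (2843 to 4379). Its Htatip2 level, 741, lay within that of the other Tip30+/- mice. The Ftl1 copies were thus high in 7 of the 8 mice labelled with the Tip30 deletion.

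Ftl1 (chr7:45457944-45459884) did not follow its copies: it was at 25561, 34612, 25846 and 22770 in the double heterozygotes and at 37975, 33829, 26408 and 32050 in the Ncoa5+/- livers, with overlap (log2 difference -0.27 ± 0.14, or -0.15 without the livers low in Zhx2). The gene and its copies added together came to 71261 to 94930 normalized counts in the double heterozygotes and to 31823 to 45337 in the Ncoa5+/- livers. The copies alone came to 48490 to 60318 and to 5415 to 7362. Fth1, the ferritin heavy chain gene, was at 35337 to 49014 and at 36648 to 44616. Mir692-1, an annotated microRNA hairpin of 109 bases on chromosome 17, was at 244 to 282 against 16.7 to 32.1 (log2 difference 3.53 ± 0.66, adjusted p = 0.180). Its hairpin aligned to the Ftl1 transcript at 94.6% identity, and the RefSeq hairpin of its relative Mir692-2 shares 91 of its 109 bases with Ftl2-ps. Libraries of long fragments from polyadenylated RNA do not measure mature microRNAs.

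A stretch of 90 coding bases of Ftl1 is shown with its copies, since the bases that differ are what tells the reads apart. Among stretches without gaps, it has the most bases at which all copies, or all but 1, differ from Ftl1. Capitals in Ftl1 mark each base at which any copy differs, and capitals in a copy mark its own differences.
Ftl1: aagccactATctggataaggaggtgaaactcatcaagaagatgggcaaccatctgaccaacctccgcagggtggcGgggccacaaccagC
Ftl2-ps: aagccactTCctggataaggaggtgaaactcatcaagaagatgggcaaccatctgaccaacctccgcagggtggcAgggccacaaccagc
Gm15590: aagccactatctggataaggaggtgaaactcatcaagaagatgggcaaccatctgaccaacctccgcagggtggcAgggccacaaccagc
Ftl1-ps2: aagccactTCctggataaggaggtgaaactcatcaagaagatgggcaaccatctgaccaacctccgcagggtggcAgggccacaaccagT
Gm12164: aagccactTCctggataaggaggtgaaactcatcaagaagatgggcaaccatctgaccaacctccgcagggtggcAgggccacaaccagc
In this window Gm15590 differs from Ftl1 at 1 base, Ftl2-ps and Gm12164 at 3 and Ftl1-ps2 at 4.

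**Figure D2:**
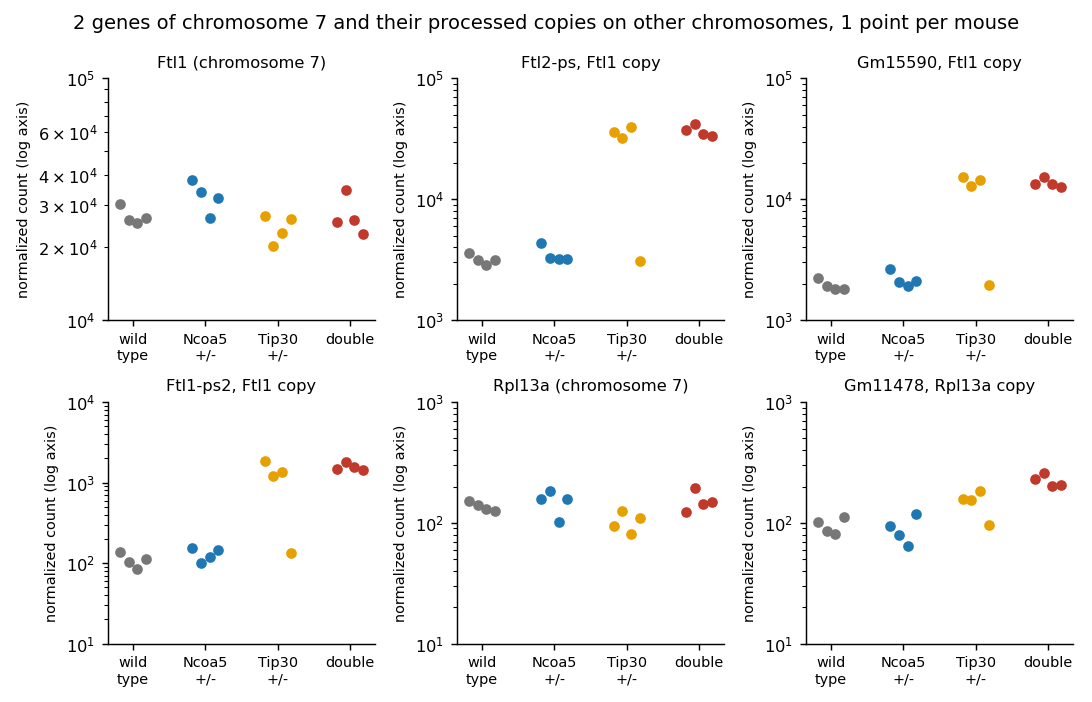
Normalized counts (y axes, log scale) of Ftl1 and Rpl13a and of 4 of their processed copies in each mouse (points) by genotype (x axis). The copies were high in all 4 double heterozygotes and in 3 of 4 Tip30+/- mice, with the fourth at 3109 for Ftl2-ps and 95.2 for Gm11478, while the genes on chromosome 7 overlapped between groups.

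Rpl13a and Ftl1 lie on the same chromosome as Htatip2, within 5 Mb of it (Rpl13a at chr7:45125558-45128761). This was noticed after the values were seen, and the counts that follow are descriptions. Of 994 processed pseudogenes tested, 923 were taken here that had a protein-coding gene of at least 90% identity over at least 80% of their length. For 12 of them that gene lay within 5 Mb of Htatip2, and in 6 of the 12 (50%) all double heterozygotes lay above all Ncoa5+/- mice. The same held for 21 of the other 911 (2.31%), close to the 2.74% of all genes. The median log2 difference was 0.76 among the 12 and 0.03 among the 911. The 6 were 2 copies of Rpl13a and 4 of Ftl1. One of them, Rpl13a-ps1, was at 10.3 to 22.5 against 4.16 to 9.01 and reached the mean of 10 only through the double heterozygotes, so its separation is no support. The 3 copies of Rpl18 ran from 0.12 to 0.26 and did not separate the groups, nor did those of Ldha and Tsg101.

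Genes that start within 5 Mb of Htatip2 were also described as a group. There were 91 tested, of which 13 were higher and 8 lower at an unadjusted p under 0.05, beside a background of 4.31% and 4.63%. The groups did not overlap in 7 that were higher and 5 that were lower, and the median log2 difference was 0.10. Of all genes, 2.74% were higher and 2.1% lower without overlap. The 5 lower were Htatip2, its neighbour Prmt3 (-0.38), Zdhhc13 (-0.33), Uevld (-0.43) and Gas2. Slc6a16 (chr7:45241085-45273367), a transporter-family gene, was at 137, 171, 118 and 159 in the double heterozygotes and at 2.25, 4.07, 14.6 and 17.5 in the Ncoa5+/- livers (log2 difference 4.13 ± 0.99, adjusted p = 0.394). Its Ncoa5+/- mean was 9.61, so it reached the mean of 10 only through the double heterozygotes, and its separation is no support. It was at 7.17 in Tip30+/- mouse 4 and at 152 to 208 in the other 3. Gm15545, a predicted gene, was at 104 to 138 against 20.3 to 62.1 (1.63 ± 0.36), and it too was low in that mouse, at 52.2 against 145 to 165. Dhdh, a dihydrodiol dehydrogenase, was at 5381, 5436, 4361 and 5958 against 3431, 2707, 3965 and 3463 (0.64 ± 0.16), and Abcc6, a liver transporter of the ABC family, at 9198 to 12031 against 6473 to 7867 (0.50 ± 0.14). On the other side of Htatip2, Gas2, a cytoskeletal gene, had a log2 difference of -0.79 ± 0.32 with no overlap. Over whole chromosomes, the groups did not overlap in 6.32% of the 1186 genes tested on chromosome 7 and in 4.72% of the genes elsewhere, and on chromosome 2, which carries Ncoa5, in 6.49% of 1186.

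**Figure D3:**
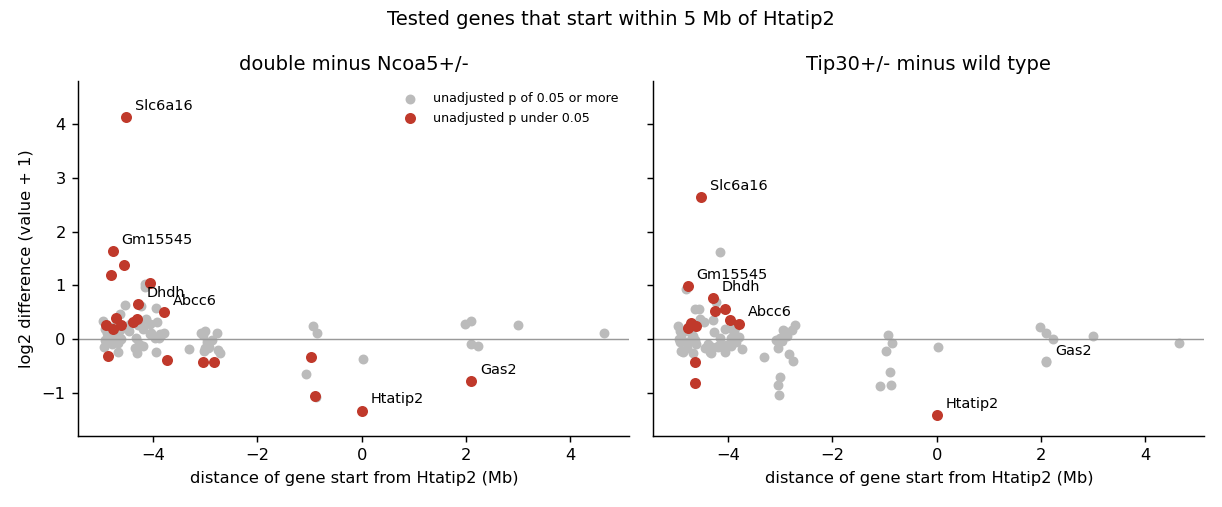
Log2 differences (y axis) of the 91 tested genes that start within 5 Mb of Htatip2, by distance of the gene start in Mb (x axis), for double heterozygotes minus Ncoa5+/- (left) and Tip30+/- minus wild type (right). Each point is a gene, and red points have an unadjusted p under 0.05. Slc6a16 and Gm15545 were the highest on the left, at 4.13 and 1.63, and Htatip2 was the lowest, at -1.33.

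Hcn3 (chr3:89146074-89160196) was at 1275, 1754, 2134 and 1990 normalized counts in the double heterozygotes and at 674, 1117, 890 and 498 in the Ncoa5+/- livers. All 4 double heterozygotes lay above all Ncoa5+/- mice. The log2 difference was 1.21 ± 0.23 (95% confidence interval 0.72 to 1.70), or 2.31-fold, with an exact permutation p of 0.0286. Over all genes it did not pass in limma (adjusted p = 0.180) and passed by DESeq2 (0.000552). Within mouse tags under 4300 the log2 difference was 0.79 and from 4300 it was 1.63. Without the livers low in Zhx2 it was 0.82 (adjusted p = 0.941). Tip30+/- livers were at 1137 ± 73.8 (SD, n = 4) and wild-type livers at 349 ± 95.7, so the order of the means was wild type, Ncoa5+/-, Tip30+/- and double heterozygote. The interaction term, the Tip30 difference on the Ncoa5+/- background minus that on the wild-type background, was -0.53 (95% confidence interval -1.23 to 0.16).

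Hcn3 overlaps the end of Pklr, the gene of liver pyruvate kinase, which runs on the opposite strand (chr3:89136142-89146784). Strand marking of the libraries is not stated, so reads in the overlap cannot be told apart. Pklr was at 9434, 7978, 10269 and 11284 in the double heterozygotes and at 6642, 9035, 8404 and 4605 in the Ncoa5+/- livers, with overlap (log2 difference 0.48 ± 0.20, exact permutation p = 0.114). Without the livers low in Zhx2 the difference was 0.15. Of the 10 tested HCN and other potassium channel genes, none passed, and Hcn3 had the smallest p. Hcn2 differed by 0.35 ± 0.35, or 0.032 without the livers low in Zhx2.

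Among other genes with groups that did not overlap and the smallest p, none passed in limma, and they are given as values. The 9 higher genes named here passed by DESeq2 (adjusted p = 0.00694 to 0.0346). Higher in every double heterozygote were Synm, an intermediate filament gene (59.5 to 107 against 20.5 to 42.8, log2 difference 1.33 ± 0.29), and Gapdhs, the glyceraldehyde-3-phosphate dehydrogenase of sperm (70.1 to 119 against 33.3 to 48.4, 1.14 ± 0.25). The cytochrome P450 genes Cyp2j9 (1.36 ± 0.32) and Cyp46a1, the cholesterol 24-hydroxylase (1.03 ± 0.25), were also higher in every one. The G protein subunit gene Gna14 differed by 0.97 ± 0.23, the orphan receptor gene Gpr135 by 0.84 ± 0.19, the ribonuclease P subunit gene Pop4 by 0.77 ± 0.18, Tlcd1 by 0.76 ± 0.18 and the splicing factor gene Luc7l2 by 0.59 ± 0.13. For Synm, Gna14, Gpr135, Pop4, Tlcd1 and Cyp46a1, all 4 Tip30+/- livers were also above all 4 wild-type livers.

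The genes that were lower in every double heterozygote, by the same rule, had varied roles. Cyp4a14, a fatty acid omega-hydroxylase under PPAR-alpha control, was at 2441, 2675, 1446 and 3766 against 9141, 4997, 4039 and 11275 (log2 difference -1.47 ± 0.36, adjusted p = 0.432). Without the livers low in Zhx2 it was -0.88. Slc22a7, an organic anion transporter of hepatocytes, was at 719, 1198, 1276 and 1245 against 2773, 1602, 1569 and 2264 (-0.88 ± 0.20), and it was -0.55 without the livers low in Zhx2, which are the Ncoa5+/- mice at 2773 and 2264. Wnt5a, a ligand of noncanonical Wnt signalling, was at 113, 97.8, 65.9 and 99.0 against 141, 122, 158 and 162 (-0.65 ± 0.16). The tight junction gene Cldn2 differed by -0.61 ± 0.15, the tRNA deaminase gene Adat2 by -0.83 ± 0.19, Lrp11 by -1.09 ± 0.27, Trim14, an adaptor of antiviral signalling, by -0.64 ± 0.16, the calcium sensor gene Ncald by -0.54 ± 0.13 (-0.36 without the livers low in Zhx2), the small GTPase gene Rras2 by -0.60 ± 0.16 and Enpp4 by -0.49 ± 0.13. By DESeq2, 27 genes were higher and 5 lower, and Cyp4a14, Slc22a7, Adat2 and Ncald were the 4 lower genes beside Htatip2.

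Interferon genes were lower in the double heterozygotes on balance, without any that passed. Of the 27 tested genes of the interferon-gamma GTPase list, 24 had a log2 difference below 0, 6 were lower at an unadjusted p under 0.05 (background 4.63%) and in 5 the groups did not overlap (background 2.1%). The median was -0.39, against -0.02 for all genes, and -0.22 without the livers low in Zhx2. Gbp11, a guanylate-binding protein, was at 2051, 2597, 1846 and 2103 against 5391, 3901, 2644 and 5269 (-0.96 ± 0.29, or -0.59 without the livers low in Zhx2). Every double heterozygote was below every Ncoa5+/- mouse. The immunity-related GTPase Irgm1 was at 975, 1129, 1016 and 1062 against 1711, 1422, 1475 and 1886 (-0.63 ± 0.17), and its relative Irgm2 at 1193 to 1517 against 1855 to 2694 (-0.66 ± 0.23). Cxcl10, a chemokine that attracts T cells, was at 53.6, 88.4, 55.5 and 69.1 against 114, 95.7, 102 and 210 (-0.91 ± 0.34, or -0.59 without the livers low in Zhx2), and Ifi47 differed by -0.52 ± 0.17.

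The type I interferon list went the same way, with 30 of 32 tested genes below 0, 5 lower at an unadjusted p under 0.05, 3 without overlap and a median of -0.31 (-0.24 without the livers low in Zhx2). Irf9, a transcription factor of the interferon response, was at 924, 1160, 902 and 1026 against 1401, 1232, 1169 and 1343 (-0.36 ± 0.12). The RNA sensor genes Ddx58, which encodes RIG-I, and Ifih1, which encodes MDA5, differed by -0.41 ± 0.14 and -0.35 ± 0.17, and their groups did not overlap. Without the livers low in Zhx2, Ifih1 was at -0.21. Ncoa5+/- livers were above wild type for both lists, with medians of 0.64 and 0.62, and this difference shares its Ncoa5+/- livers with the comparison described here. Against wild type, which shares its double heterozygous livers, the medians were 0.46 and 0.32. Tip30+/- minus wild type, which shares no liver with it, had medians of -0.23 and -0.30. There too, the livers low in Zhx2 were only in the group without the Tip30 deletion.

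Markers of immune cells were read beside these lists, because in whole liver fewer cells of a type and less RNA per cell cannot be told apart. Of 14 tested T cell and natural killer cell markers (18 listed), 12 were below 0, the median was -0.24, and their summed level was 483 to 755 normalized counts in double heterozygotes and 571 to 914 in Ncoa5+/- livers. Of 15 tested macrophage and Kupffer cell markers, 13 were below 0, with a median of -0.16 (-0.33 without the livers low in Zhx2) and sums of 12192 to 21783 and 14907 to 26215. Adgre1, the F4/80 antigen of macrophages, was at 110, 165, 225 and 220 against 166, 240, 377 and 309 (-0.59 ± 0.30). Sums overlapped between groups for both lists, and the part of these cells in the interferon values was not tested. Of 24 antigen presentation genes, 17 were below 0 (median -0.12), and the 5 tested neutrophil markers had a median of -0.30, or 0.16 without the livers low in Zhx2.

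Chaperone genes of the heat shock and unfolded protein responses were also low on balance. Of 28 tested, 25 were below 0, 8 were lower at an unadjusted p under 0.05 (4.63% of all genes were), and the median was -0.33, or -0.32 without the livers low in Zhx2. None passed, and the groups did not overlap in 1, near the share of all genes (2.1%): Xbp1, the transcription factor of the unfolded protein response (5309, 3616, 5558 and 4376 against 5985, 6396, 6171 and 5845, -0.39 ± 0.15). Named after their values were seen, Hspa5, which encodes the chaperone BiP of the endoplasmic reticulum, differed by -0.57 ± 0.21, Pdia4, a protein disulfide isomerase, by -0.47 ± 0.16, and Hsph1, a cytosolic chaperone, by -0.61 ± 0.25. The members above 0 were Fgf21, Ddit3 and Atf4, genes of the integrated stress response. On the wild-type background, Tip30+/- minus wild type had a median of -0.29 for this list. In that difference too, livers low in Zhx2 were only in the group without the Tip30 deletion, and its median was not computed without them.

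**Figure D4:**
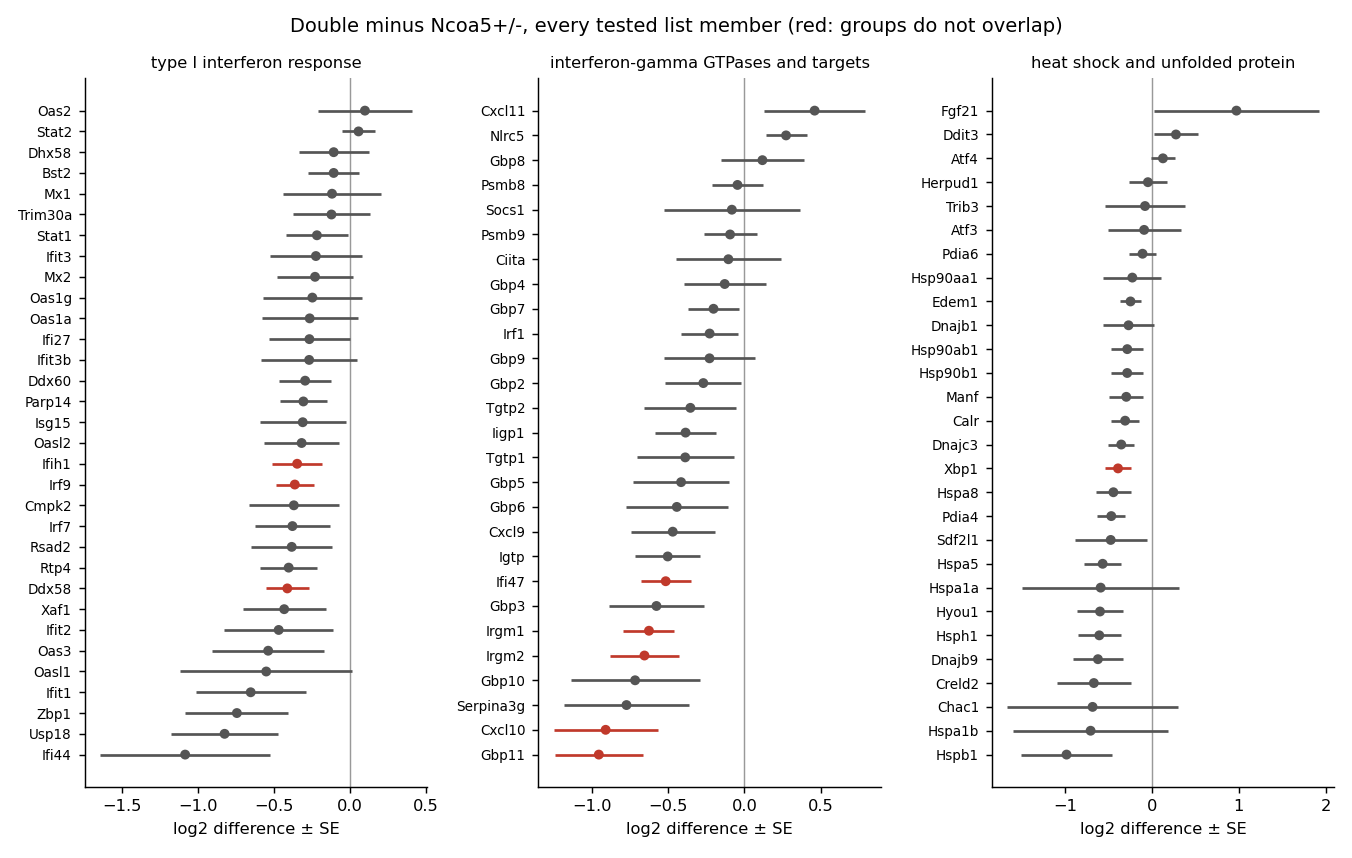
Log2 differences (x axes, with SE) between double heterozygotes and Ncoa5+/- livers for each tested gene (y axes) of 3 lists. Red marks genes whose groups did not overlap, and 30 of 32, 24 of 27 and 25 of 28 genes lay below 0.

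Secreted proteins of hepatocytes were low in part. Of 30 acute phase genes, 25 were below 0 and 4 were lower at an unadjusted p under 0.05 (4.63% of all genes were), with a median of -0.24 that was -0.10 without the livers low in Zhx2. Of 35 complement and coagulation genes, 27 were below 0, and the median was -0.18 and -0.06. C3, the central complement component, was at 231570, 157730, 270260 and 267640 against 363000, 274560, 289870 and 310010 (-0.44 ± 0.17). Its groups did not overlap, which held for 1 of the 35 genes, near the share of all genes that were lower without overlap (2.1%). Selenop, the selenium carrier protein of plasma, was lower in every double heterozygote (77921 to 91901 against 96417 to 131690, -0.40 ± 0.13, or -0.27 without the livers low in Zhx2). Of 22 stress cytokine and hepatokine genes, 1, Selenop, was lower without overlap (2.1% of all genes were).

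Lists of metabolism held no gene that passed. Of 31 fatty acid and triglyceride synthesis genes, 24 were above 0 and 4 were higher at an unadjusted p under 0.05 (4.31% of all genes were), with a median of 0.18 (0.06 without the livers low in Zhx2). Khk, the ketohexokinase of fructose metabolism, was at 27217, 26005, 20414 and 19521 against 18105, 18080, 16316 and 10108 (0.60 ± 0.17), with no overlap. That held for 1 of the 31 genes, near the share of all genes that were higher without overlap (2.74%). Mlxipl, which encodes the carbohydrate response factor ChREBP and was named after its values were seen, differed by 0.93 ± 0.24, with overlap. Of 31 fatty acid oxidation genes, 24 were below 0 (median -0.16), and 2 were lower at an unadjusted p under 0.05 (4.63% of all genes were). In 2 that were lower the groups did not overlap (2.1% of all genes). These were Cyp4a14 and Hadhb, a subunit of the mitochondrial trifunctional protein (-0.27 ± 0.11, or -0.16 without the livers low in Zhx2). Of 28 bile acid genes, 17 were below 0 (median -0.06), and 2 were lower without overlap (2.1% of all genes were). Cyp7b1, the oxysterol 7-alpha-hydroxylase, was at 305, 485, 464 and 551 against 582, 826, 745 and 589 (-0.62 ± 0.30), and Slc27a5, the bile acid CoA ligase, at 18112 to 21520 against 22238 to 28097 (-0.31 ± 0.14, or -0.19 without the livers low in Zhx2). Glul, the glutamine synthetase of pericentral hepatocytes, was at 13579 to 15863 against 15961 to 25938 (-0.42 ± 0.16, or -0.21 without the livers low in Zhx2). The 20 pericentral genes had a median of -0.12, and 1 of them, Glul, was lower without overlap (2.1% of all genes were). Cholesterol synthesis (26 genes, median -0.06), gluconeogenesis and insulin signalling (25, -0.04), nuclear receptors (28, -0.02) and core clock genes (20, 0.18) held no gene that passed either. Without the livers low in Zhx2, the median was -0.29 for cholesterol synthesis and 0.048 for the clock genes. Rxra, the shared partner of many nuclear receptors, was lower in every double heterozygote (9671 to 12787 against 13835 to 15549, -0.30 ± 0.10). It was the 1 gene of the 28 nuclear receptors to separate the groups, beside 2.1% of all genes that were lower without overlap.

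The other lists described here held no gene that passed either. Of 24 genes of EGF receptor signalling and endocytic trafficking, 0 passed, 0 had an unadjusted p under 0.05 in limma, and the median was -0.09. The groups did not overlap in 1 higher and 1 lower gene, near the shares of all genes (2.74% and 2.1%). These were the ligand genes Egf (22.6 to 32.0 against 10.7 to 20.8) and Hbegf (16.7 to 23.5 against 23.7 to 33.6). Both were at low counts and were named after their values were seen. The 23 nuclear receptor coactivator and corepressor genes had a median of -0.01, and none separated the groups. The p53 targets of arrest and feedback (18 genes) had a median of -0.04, or 0.16 without the livers low in Zhx2, and those of apoptosis (15 genes) -0.08, while the same lists stood 1.40 and 0.49 above wild type in the Ncoa5+/- livers and 1.29 and 0.54 above it in the double heterozygotes. Of 27 cell cycle genes, 22 were below 0 (median -0.25), and none had an unadjusted p under 0.05. The 14 fetal liver and tumour markers had a median of -0.38, or -0.09 without the livers low in Zhx2, and the 19 major urinary protein genes one of 0.82, or -0.54 without them. Of the 32 iron and heme genes, the groups did not overlap in 1 that was higher, near the share of all genes (2.74%). This was Ppox, an enzyme of heme synthesis (843 to 950 against 544 to 819, 0.48 ± 0.14). The list median was -0.06.

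**Figure D5:**
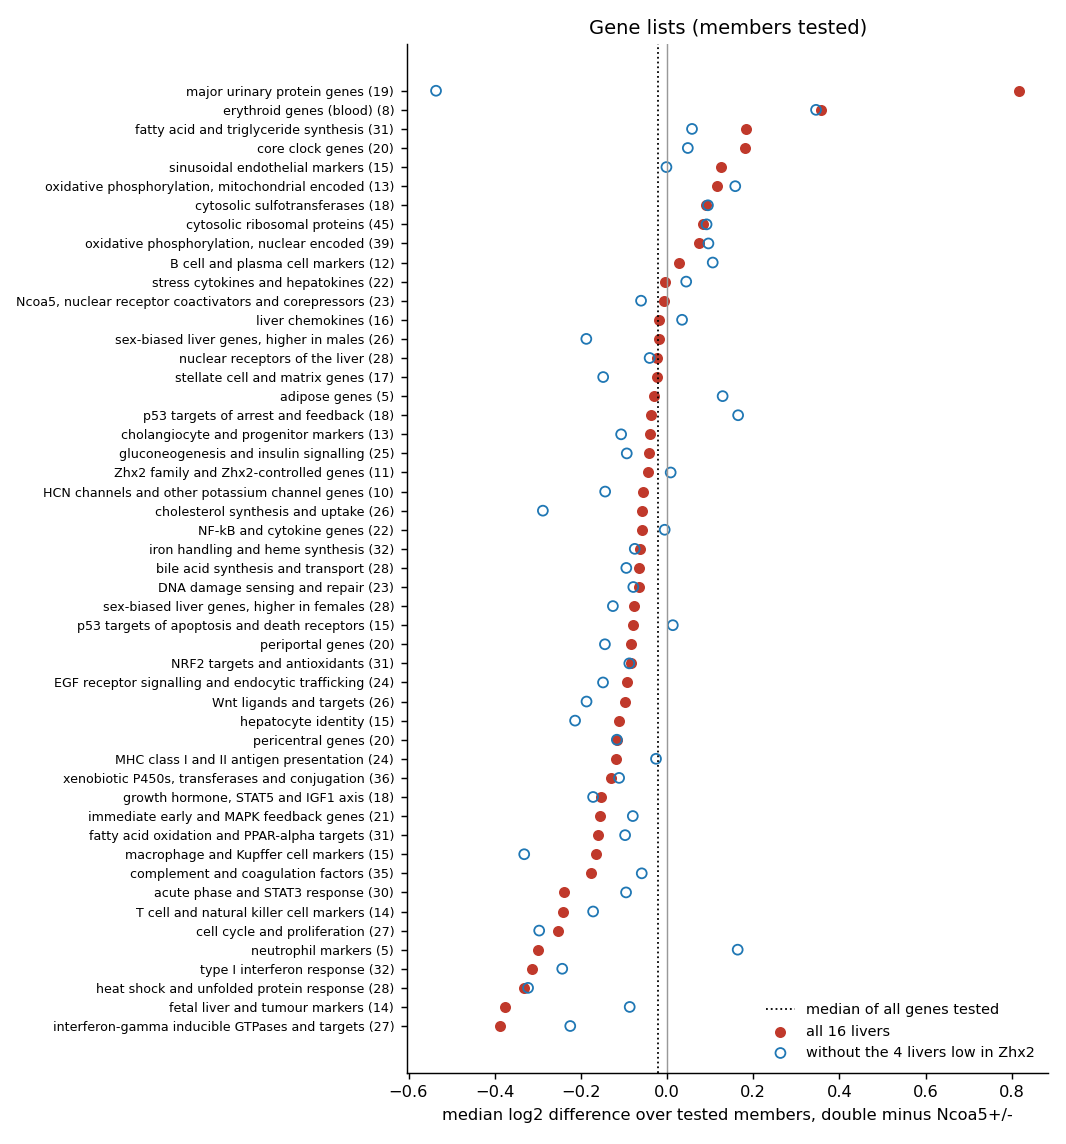
Median log2 difference (x axis) between double heterozygotes and Ncoa5+/- livers over the tested members of each gene list with at least 5 (y axis, number tested in parentheses), over all livers (filled points) and without the 4 livers low in Zhx2 (open points). The dotted line is the median of all genes, -0.02. The interferon-gamma list was the lowest at -0.39, and the major urinary protein genes moved from 0.82 to -0.54.

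The difference between backgrounds was tested as an interaction, and limma called 0 genes, with 673 (4.36%) at an unadjusted p under 0.05. DESeq2 called 1 gene and edgeR 0. Across the 15433 genes, the Tip30 difference on the Ncoa5+/- background and that on the wild-type background, which share no mouse, correlated at r = 0.38 (Pearson) and 0.25 (Spearman). Genes are not independent replicates, so these are descriptions. In both differences the livers low in Zhx2 were only in the group without the Tip30 deletion. Zhx2 itself differed by 2.28 and 2.01. Neither the correlations nor the count that follows was computed without those livers. Of 215 genes with an unadjusted p under 0.05 on both backgrounds, 203 differed in the same direction. Gapdhs differed between backgrounds by 1.19 ± 0.35 and Luc7l2 by 0.46 ± 0.19, neither of which passed over all genes.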

How the data were processed

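The deposited table holds a signal per gene: reads scaled by the authors with 1 DESeq2 size factor for each library, as the labels and the values show. Per the submitters' processing notes, Trimmomatic 0.36, STAR 2.6.0c and DESeq2 1.28.1 were used with GRCm38. No source used here names the counting program, its strand setting or its treatment of reads with several matches. Values were whole multiples of 1 step per library (tolerance 0.001), so whole reads were recovered. The test was limma 3.58.1 (trend, robust, 2-sided) on log2(value + 1), 1 model of 4 group means over 16 libraries with 12 residual degrees of freedom, adjusted by Benjamini-Hochberg over 15433 genes. Errors are SE on that scale unless named otherwise. DESeq2 1.42.0 and edgeR 4.0.16 on the recovered reads were alternatives. Copies were matched with BLAST 2.17.0 to GENCODE M21. The chain was tested on simulated data with 200 changed genes among 15433, in 3 draws, and 5.06% of its calls were false. The changed genes were drawn from those that averaged 50 or more. Values of different genes were drawn independently. The members and the 52 gene lists were chosen with earlier results of these data known. Named genes are all that passed, Htatip2, Ncoa5, Hcn3, Pklr and Zhx2, and up to 12 in each direction with groups that do not overlap, the smallest p, and 50 or more normalized counts on average where higher, without predicted genes. From each described list up to 3 members without overlap are named, or where there is none, up to 2 with the largest differences. Ifi47 and Hcn2 were named outside these rules. Genes near Htatip2 and copies were named after their values were seen. Every pair among the 8 libraries differed beyond sampling noise (chi-square per gene at least 42.6). Some items are not reported here and were left out of the counts over copies.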

Additional observations from a re-analysis of the deposited data

Results flagged for a closer look

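Among 144 groups of 4 mice (36 genes in 4 genotypes), 9 held a mouse far from the other 3, where chance alone marks about 1 in 20. Tip30+/- mouse 4 was at 10.2 normalized counts of Gm6394, while the other Tip30+/- mice were at 153 to 177. Ncoa5+/- mouse 1 stood apart in 4 genes: it was high for Ftl2-ps (4379 against 3217 to 3245) and Cldn2 (3676 against 3164 to 3232) and low for Gpr135 (74.3 against 87.6 to 89.6) and Gna14 (27.0 against 41.8 to 42.7). In these 4 genes, leaving it out changed no direction. Among double heterozygotes, mouse 3 was low for Luc7l2 (2681 against 3423 to 3536) and mouse 1 for Slc22a7 (719 against 1198 to 1276). Tip30+/- mouse 3 was low for Slc22a7 (871 against 1199 to 1252) and wild-type mouse 3 for Rras2 (511 against 697 to 710).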

How the results depend on the processing

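Htatip2 passed in every one of the 21 other settings, between -1.41 and -1.17. The count of lower genes was 1 in each of them except DESeq2 (5). The count of higher genes, 2 in the reported fit, was 27 by DESeq2, 8 for the 2 groups alone, 6 without robust moderation, 3 with the mouse tag as a covariate (Col27a1 added), 1 with no filter, 0 without the livers low in Zhx2, 0 to 1 without single mice, and 9 without Tip30+/- mouse 4, chosen after seeing the data. DESeq2 called 1 gene in the interaction. For double heterozygotes against Ncoa5+/- livers, Hcn3 passed in 1 of the 21 other settings, DESeq2 (log2 difference 1.18). Without single mice Ncoa5 ran from -0.012 to 0.081, with the sign changed without Ncoa5+/- mouse 1. No paired analysis was possible because the labels carry mouse tags and no replicate numbers shared between groups. Without the livers low in Zhx2, which leaves fewer mice, signs changed for Tat (-0.28), Lcn2 (0.10), S100a9 (0.16), Psrc1 (0.65), H19 (0.20), Egr1 (0.53), Fdps (-0.30), Sult3a1 (-0.52), Mt1 (0.38) and Bhlhe41 (-0.14), none of which passed in any fit. Without single mice Psrc1 ran from -1.01 to 0.023, positive without Ncoa5+/- mouse 4, and Igkc from -0.35 to 0.15, positive without Ncoa5+/- mouse 3 (0.011) or double heterozygote 4. With 4 mice a group, changes of 1.5-fold are mostly missed. Scaling moved the median of all genes by less than 0.1.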
